A study of Mus musculus with 2 samples.

Results

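The genes described here encode structural proteins of the endothelial basement membrane, the thin sheet of matrix on which blood vessel endothelium rests. They were chosen by name, with earlier results of these data known, as Col4a1, Col4a2, Col18a1, Nid1, Nid2, Hspg2, Lama4, Lama5, Lamb1 and Lamc1. Of these 10 genes, 9 were among the 11405 genes of the deposited tables, and Nid2 was not analysed here. The samples were cultures of MS1, a mouse endothelial line derived from pancreatic islets and immortalised, profiled by poly-A RNA sequencing. One library came from cells of genotype wt with a lentiviral shRNA (short hairpin RNA) against the bacterial gene LacZ, which serves as control, and the other from cells labelled Pspc1 knockdown carrying a lentiviral hairpin against Pspc1, which encodes a paraspeckle protein. All cells of both groups were infected with lentivirus. The labels give neither the hairpin sequences nor the time after infection. With 1 library per group no value has a replicate error and no p-value can be given. Any difference between these libraries cannot be told apart from a difference between any pair of cultures or library preparations.

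A basement membrane is built from a laminin network at the cell surface and a network of type IV collagen, which nidogens and the proteoglycan perlecan tie together. Laminins are secreted as trimers of an alpha, a beta and a gamma chain, and endothelial cells are known for trimers in which Lama4 or Lama5 joins Lamb1 and Lamc1. The type IV collagen of most vessels is a trimer of Col4a1 and Col4a2 chains with more Col4a1 than Col4a2. Col18a1 encodes collagen XVIII, whose C-terminal fragment is endostatin, and Hspg2 encodes perlecan.

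Col4a1 and Col4a2 lie head to head on chromosome 8, so that 1 stretch of DNA is the promoter of both. Their promoter windows, each running from 250 bases before to 50 bases after the RefSeq start (build GRCm38.p6), are shown because these partner genes had different ratios between the libraries. Capitals mark the 22 bases (chr8:11312805-11312826) that are transcribed from both starts, on opposite strands. Col4a1 covers chr8:11312777-11313076 on the minus strand and Col4a2 covers chr8:11312555-11312854 on the plus strand, and the windows share 78 bases. Each is written 5′ to 3′ on its own strand.
Col4a1: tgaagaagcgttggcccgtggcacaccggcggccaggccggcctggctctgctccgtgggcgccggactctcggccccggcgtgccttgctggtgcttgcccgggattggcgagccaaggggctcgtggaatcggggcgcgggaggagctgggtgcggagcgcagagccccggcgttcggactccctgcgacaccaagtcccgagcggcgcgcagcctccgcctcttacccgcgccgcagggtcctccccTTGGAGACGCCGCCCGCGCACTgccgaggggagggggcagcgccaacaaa
Col4a2: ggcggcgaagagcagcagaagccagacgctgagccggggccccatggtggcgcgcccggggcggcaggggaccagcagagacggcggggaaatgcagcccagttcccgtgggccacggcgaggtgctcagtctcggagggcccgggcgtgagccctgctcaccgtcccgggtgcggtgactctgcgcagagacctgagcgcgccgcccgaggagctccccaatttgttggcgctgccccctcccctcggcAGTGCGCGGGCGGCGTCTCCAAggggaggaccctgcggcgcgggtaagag

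The windows of Nid1 (chr13:13437352-13437651, plus strand) and Hspg2 (chr4:137468553-137468852, plus strand) are shown as those of the member called higher in the knockdown library and of the member with the most GC boxes, with each GGGCGG (GC box, either strand) in capitals.
Nid1: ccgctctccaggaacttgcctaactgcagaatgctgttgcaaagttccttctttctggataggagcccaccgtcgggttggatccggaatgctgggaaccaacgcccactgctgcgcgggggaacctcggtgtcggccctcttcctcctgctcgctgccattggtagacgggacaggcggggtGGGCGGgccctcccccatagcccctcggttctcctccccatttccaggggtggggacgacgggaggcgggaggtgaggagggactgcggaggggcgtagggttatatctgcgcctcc
Hspg2: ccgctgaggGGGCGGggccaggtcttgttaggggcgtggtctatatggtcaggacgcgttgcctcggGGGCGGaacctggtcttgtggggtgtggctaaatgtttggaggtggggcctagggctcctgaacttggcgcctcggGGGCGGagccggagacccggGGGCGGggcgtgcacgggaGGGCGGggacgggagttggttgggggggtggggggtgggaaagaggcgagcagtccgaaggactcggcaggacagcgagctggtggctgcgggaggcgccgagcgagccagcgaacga

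RefSeq windows were found for 7 of the 10 genes, 8 windows in all because Col18a1 has a pair of starts. The GC box, on either strand, occurred in 7 of these 8 windows and in 35.7% of all 32851 windows of 300 bases. Hspg2 had 5 matches, Lama5 had 4, and Col4a2 and the upstream start of Col18a1 had 3 each. Lamb1 had 2, and Nid1 and Col4a1 had 1 each. The string TATAAA, searched on both strands, occurred in none of the 8 windows and in 13.6% of all. CCCTCCCC, again on both strands, was found in 4 of the 8 windows, those of Col4a1, Col4a2, Lama5 and Nid1, and in 10.8% of all. The matches of Col4a1 and Col4a2 are 1 site, in the bases that their windows share, counted in both windows. The single GC box of Col4a1 also lies there and is counted among the 3 of Col4a2. The string CCAAT occurred, on either strand, in the windows of Col4a1, Col4a2, Lamb1, Nid1 and the upstream start of Col18a1, and in 37.4% of all windows. The windows of Nid1, which was higher, and Col4a2, which was lower, were thus alike in which of these 4 strings they held.

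Pspc1 itself stood at 28.8 with the LacZ hairpin and at 3.78 in the library labelled as its knockdown, 7.62-fold lower. The tables held 64009912 reads on the listed genes for the control and 53518762 for the knockdown. All 15 endothelial markers on a fixed list were listed, with summed values of 7954 and 8543 (control first, as throughout). Single markers moved apart. Of the 13 with a mean of at least 50, Kdr (log2 ratio of knockdown over control -0.94), Sox18 (-0.80) and Cdh5 (-0.75) were at least 1.5-fold lower, and Plvap (0.74) and Esam (0.59) at least 1.5-fold higher. Of all 3629 genes with such a mean, 3.89% were lower and 3.39% higher by that factor. These 5 markers were named after their values were seen, and their part in the results was not tested. Markers of other cells that the line should not contain were mostly outside the tables. Of 14 fibroblast and mural cell markers 2 were listed, with summed values of 1.87 and 3.37, and none of 8 islet endocrine markers was. The leukocyte list was represented by Cd68 alone among 8 (102.7 and 123.7). Of 9 epithelial markers Krt18 (23.9 and 36.9) and Krt19 (23.8 and 115.2) were listed, and their part in the results was not tested. Fewer cells of a type and less RNA per cell cannot be told apart in such bulk samples.

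As a group, the basement membrane genes were lower in the knockdown library, with the exception of Nid1. The log2 ratio of knockdown over control, taken with a pseudocount of 0.5, was below 0 for 8 of the 9 listed genes, where 54.8% of all 11405 genes were, and ranged from -1.78 for Col18a1 to 1.21 for Nid1. The median of the 9 ratios was -0.77, against -0.047 over all 11405 genes. Because the genes were chosen with earlier results of these data known, the shares over all genes given here describe and do not test the set. Among the 6 genes whose values averaged at least 50, the median was -0.54, against 0.074 over all 3629 such genes. A gene was called higher or lower when that mean was at least 50 and the change at least 2-fold. By this rule 1 of the 6 genes was higher, Nid1, where 0.551% of the 3629 genes were, and 1 was lower, Col4a2, where 0.937% were. With a threshold of 1.5-fold Col4a1 and Lamc1 joined Col4a2, which made 3 of 6 lower against 3.89% of all, and 1 of 6 higher against 3.39%. Hspg2, Lama5 and Col18a1 differed by more than 2-fold but had means under 50. With a minimum of 20 there were 3 lower members of 8 (1.21% of all genes), and with no minimum 4 of 9 (2.68%). Over all genes the balance of calls depended on the scaling. Of all calls 37.0% were higher as deposited, 25.4% when scaled by total reads and 49.0% by a trimmed mean of M values. When scaled by total reads, 16 of 3537 genes tested were higher and 47 lower. By a trimmed mean of M values 24 of 3670 were higher and 25 lower. With median-of-ratios scaling 24 of 3675 were higher and 24 lower. Nid1 and Col4a2 were the only members called under these scalings. The Col4a2 call ended, at a log2 ratio of -0.89, when ratios were corrected for exonic length and GC content, and the Nid1 call held.

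**Figure D1:**
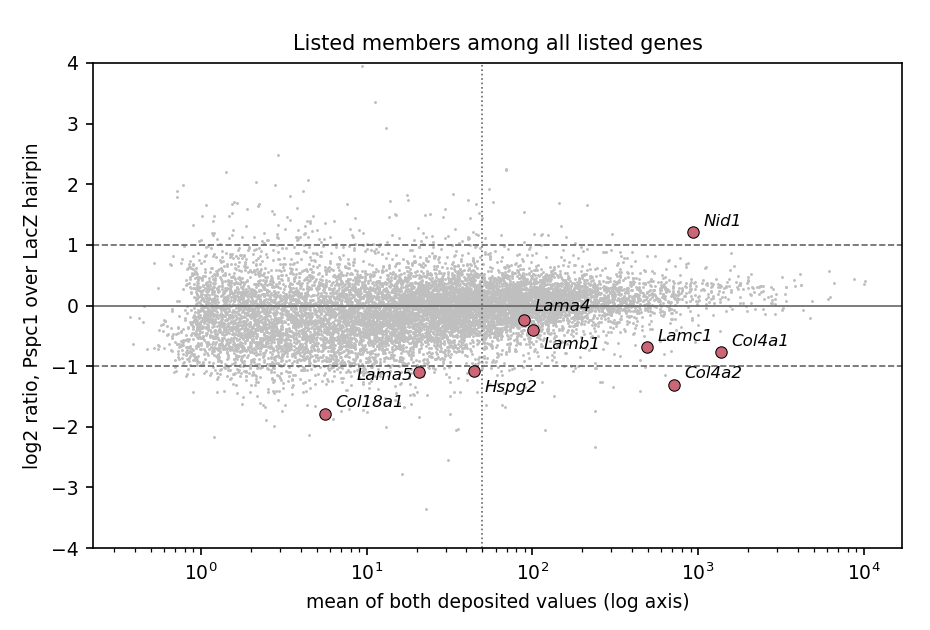
Each grey point is 1 of the 11405 listed genes, placed by the mean of both deposited values (log axis) and the log2 ratio of knockdown over control; red points are the 9 listed basement membrane genes, dashed lines mark 2-fold and the dotted line a mean of 50. Nid1 lies above the upper dashed line at 1.21 and Col4a2 below the lower one at -1.31; 1 gene lies outside the plotted range.

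The type IV collagen chains were the most abundant members in control cells. Col4a1 (ENSMUSG00000031502, mm10 chromosome 8, 11198423 to 11312826, minus strand, 52 exons in its longest transcript) had 1736 with the LacZ hairpin and 1017 with the Pspc1 hairpin. This was 1.71-fold lower, with a log2 ratio of -0.77 and a 95% counting interval of -0.79 to -0.76 without pseudocount, and did not reach 2-fold. Only 72 of the 3629 well-measured genes had a lower ratio than Col4a1. Col4a2 (ENSMUSG00000031503, chromosome 8, 11312805 to 11449287, plus strand, 48 exons) fell from 1020 to 412.5, 2.47-fold, with a log2 ratio of -1.31 and a counting interval of -1.33 to -1.28. Its ratio was lower than that of all but 12 of these genes. The Col4a2 value rested on 66563 and 20941 reads. Counting intervals here come from the whole reads behind the values, cover counting error only, and compare the 2 libraries rather than the conditions.

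The partner chains of type IV collagen did not shift by the same factor. The log2 ratio of Col4a1 was 0.53 above that of Col4a2 (counting interval 0.51 to 0.56), a difference that, apart from the pseudocount, no scaling of the libraries can move. Per kilobase of exon, Col4a1 had 232.6 in control and 136.3 in knockdown cells, and Col4a2 had 154.1 and 62.3. Col4a1 thus stood at 1.51 times the level of Col4a2 in control cells and at 2.19 times in knockdown cells. The 22 bases shown in capitals above are the only exonic overlap of these genes, against 6619 exonic bases for Col4a2, and another 43 bases of Col4a2 overlap Gm15419, which was not listed. The difference shrank to 0.25 after the ratios were corrected for exonic length and GC content, and to 0.052 with the length of the longest transcript in that correction, as described below.

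Col18a1 (ENSMUSG00000001435, chromosome 10, 77052178 to 77166548, minus strand), the third collagen gene, was scarcely expressed. Its value was 8.93 with the LacZ hairpin and 2.25 with the Pspc1 hairpin, from 583 and 114 reads. The log2 ratio was -1.78, and without the pseudocount it was -1.99 with a counting interval of -2.29 to -1.70. A pseudocount of 5 reduced the ratio to -0.94. The knockdown library held 3.98-fold less of this transcript, the largest factor among the 9 genes, at a level far under the minimum of the size rule.

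Nid1, which encodes nidogen 1, a linker between the laminin and collagen networks, went the other way. Nid1 (ENSMUSG00000005397, chromosome 13, 13437551 to 13512269, plus strand, 20 exons) rose from 563.8 in control to 1302 in knockdown cells, 2.31-fold. The log2 ratio was 1.21 with a counting interval of 1.19 to 1.23, from 36790 and 66113 reads. Of the 3629 well-measured genes only 8 had a higher ratio. Its exons overlap those of Gm48682 on the opposite strand by 143 bases, and Gm48682 was not among the listed genes. In rank of deposited values among all genes Nid1 went from 274 to 109, while Col4a1 went from 57 to 146. Under each alternative scaling, pseudocount and correction tried, its log2 ratio lay between 1.10 and 1.40, so Nid1 kept the 2-fold call.

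**Figure D2:**
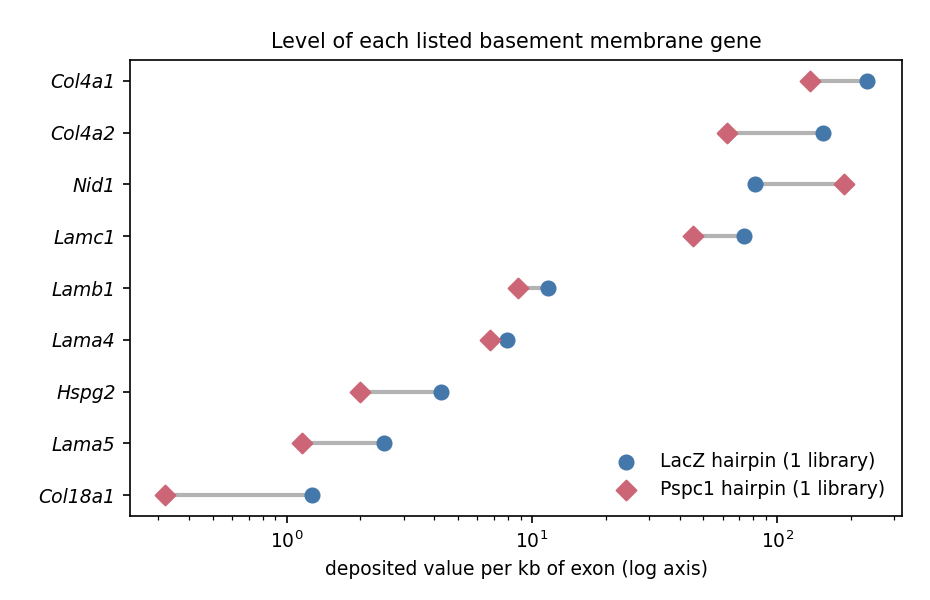
Circles give the LacZ hairpin library and diamonds the Pspc1 hairpin library (1 library each), as deposited values per kilobase of exon on a log axis, for the 9 listed genes ordered by their control level. Diamonds lie left of circles for 8 genes, and right of it for Nid1, which goes from 81.2 to 187.6.

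Perlecan, the heparan sulfate proteoglycan of the basement membrane, had low values in both libraries. Hspg2 (ENSMUSG00000028763, chromosome 4, 137468769 to 137570630, plus strand) is the longest member, with 14307 exonic bases and 97 exons. It was measured at 60.8 in control and 28.4 in knockdown cells, 2.14-fold lower, with a log2 ratio of -1.08 and a counting interval of -1.18 to -1.01. The mean of 44.6 fell short of the size rule. With a pseudocount of 5 the ratio was -0.98, and after correction for exonic length and GC it was -0.24. With the length of the longest transcript in that correction it turned to 0.33.

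The laminin chains of the endothelial trimers all had lower deposited values in the knockdown library, by unequal factors, and none was called. After correction for exonic length and GC the log2 ratio of Lama4 turned to 0.022, and with the longest transcript that of Lama5 was -0.0097. Both corrected ratios include an added constant of 0.07, described below. Before that constant both genes lay below their fitted values, Lama4 at -0.23 against -0.18 and Lama5 at -1.09 against -1.01. Lamc1 (ENSMUSG00000026478, chromosome 1), the gamma chain common to both trimers, had 603.9 and 375.4, 1.61-fold lower, with a log2 ratio of -0.69 (counting interval -0.71 to -0.66). Lamb1 (ENSMUSG00000002900, chromosome 12), the beta chain, had 115.6 and 87.4, a log2 ratio of -0.40 (-0.46 to -0.35). Neither reached 2-fold. The log2 ratio of Lamb1 was 0.28 above that of Lamc1 (counting interval 0.22 to 0.34). That difference was also 0.28 after correction for exonic length and GC, and 0.073 with the longest transcript in the correction.

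The alpha chains differed more from each other. Lama4 (ENSMUSG00000019846, chromosome 10), the alpha chain typical of endothelium, had 95.96 in control and 81.5 in knockdown cells, with a log2 ratio of -0.23 (counting interval -0.29 to -0.18). This was the smallest difference among the 9 genes, and 566 of the 3629 well-measured genes had a lower ratio. Lama5 (ENSMUSG00000015647, chromosome 2), the alpha chain of the other trimer, had 28.5 and 13.1, 2.18-fold lower, with a log2 ratio of -1.09 (-1.25 to -0.99). Its mean of 20.8 kept it outside the size rule. Lama4 lay 0.86 above Lama5 in log2 ratio (counting interval 0.75 to 1.03). After correction for exonic length and GC that difference was 0.59, and with the longest transcript in the correction it was -0.024, so it depended on the length used.

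Levels per kilobase of exon kept the same order within the laminins in both libraries. Lamc1 was the highest, at 73.0 and 45.4, followed by Lamb1 at 11.7 and 8.82, Lama4 at 7.95 and 6.76 and Lama5 at 2.503 and 1.15. Lamb1 thus stood at 0.160 times Lamc1 in control cells and 0.194 times in knockdown cells, or 0.252 and 0.307 times with the length of the longest transcript. Lama4 stood at 3.18 and 5.87 times Lama5, or at 6.34 and 11.7 times with the longest transcript, because all annotated exons of Lama4 merge to 12068 bases while its longest transcript has 6046. Transcript levels of the gamma chain therefore exceeded those of the member alpha and beta chains under either length.

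**Figure D3:**
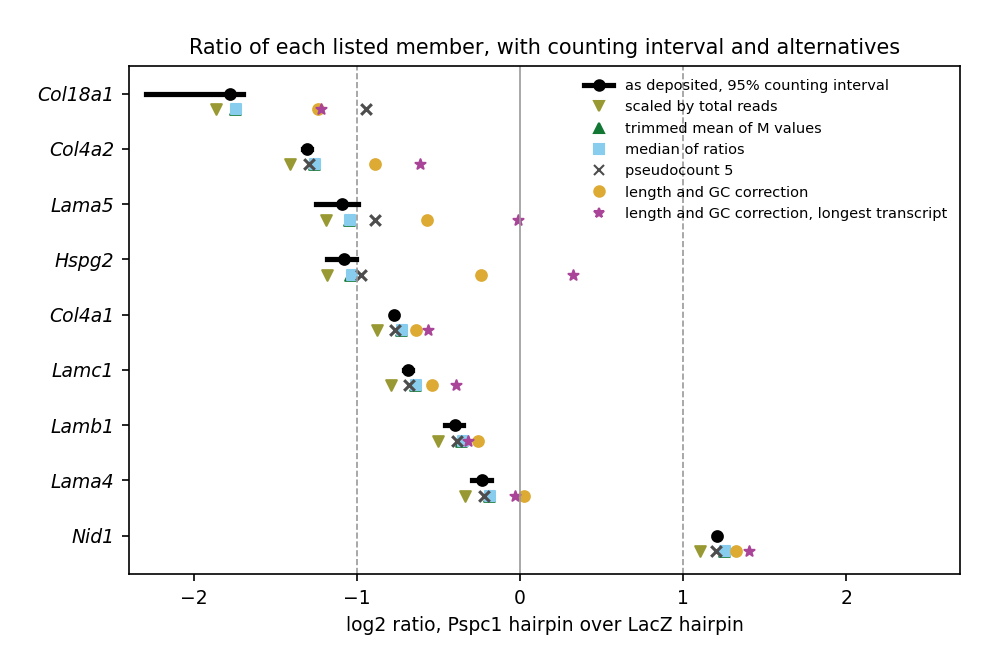
Log2 ratio of knockdown over control for each listed gene (black point, pseudocount 0.5) with the 95% counting interval without pseudocount (bar), and below it the ratio under 6 alternatives. Nid1 stays right of 1 throughout, and Col4a2 moves from -1.31 to -0.89 and -0.62 with the length and GC corrections. Hspg2 and Lama4 cross 0 under 1 correction each. Corrected ratios include an added constant of 0.07, so Lama4 crosses 0 although its ratio lies below its fitted value.

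The make-up of the basement membrane transcripts differed between the libraries. Summed over the 9 genes, the level per kilobase was 568.6 in control and 450.6 in knockdown cells, a ratio of 0.793. Without Nid1 the sums were 487.4 and 263.0, a ratio of 0.540. Nid1 made up 14.3% of the summed level in control cells and 41.6% in knockdown cells. Col4a1 went from 40.9% to 30.2% and Col4a2 from 27.1% to 13.8%, while Lamc1 made up 12.8% and 10.1%. With the length of the longest transcript the share of Nid1 was 14.5% and 41.7%. In control cells the order was Col4a1, Col4a2, Nid1 and Lamc1, and in knockdown cells Nid1 came first, with the other genes in the same order as before.

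**Figure D4:**
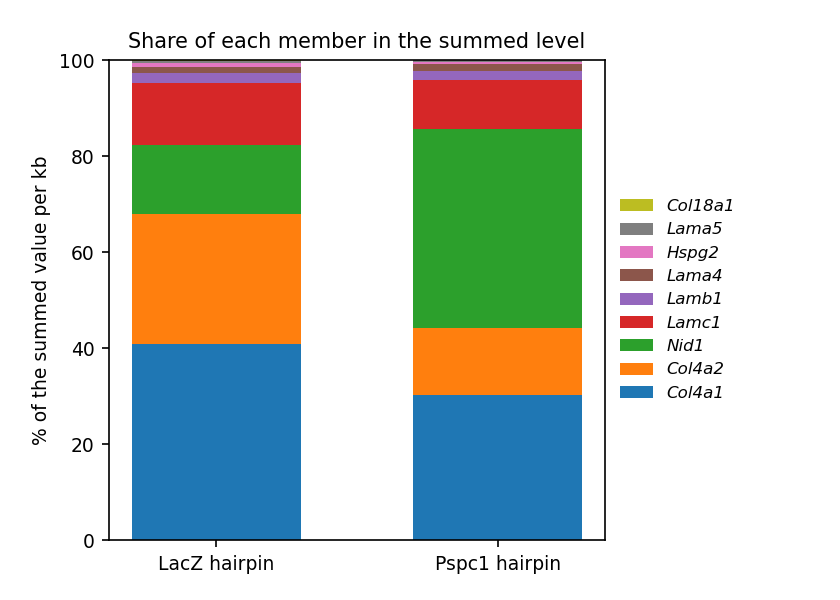
Stacked bars give, for each library, the percent of the summed value per kilobase of exon that each of the 9 listed genes holds. The Nid1 segment takes 14.3% in the LacZ hairpin library and 41.6% in the Pspc1 hairpin library.

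The members with the lowest ratios were also those with the most GC-rich transcripts. GC content of the longest transcript was 60.8% for Col18a1, 60.6% for Col4a2, 59.9% for Lama5 and 60.9% for Hspg2, the 4 genes more than 2-fold lower. It was 57.7% for Col4a1, 53.0% for Lamc1, 52.5% for Lamb1, 50.4% for Nid1 and 50.03% for Lama4. Across the 9 genes Spearman's rho between GC content and log2 ratio was -0.88, and -0.86 across the 8 genes without Nid1. These genes share the same pair of libraries and are not replicates. Over the 5881 other genes whose values averaged 20 or more, the relation had the opposite sign, with a rho of 0.29. Exonic length had a rho of -0.32 with the log2 ratio over those genes, and of 0.18 across the 9 members. Each of the 9 members has at least 6000 exonic bases.

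Long GC-rich transcripts outside the basement membrane were lower as well. Among other genes with at least 6000 exonic bases and a GC content of at least 60%, the class of Col4a2, Col18a1 and Hspg2, the median log2 ratio was -0.54 over 30 genes, of which 26 were below 0 and 7 (23.3%) at least 2-fold lower. Shorter genes of the same GC content had a median of 0.12 over 254 genes, with 1.97% at least 2-fold lower. Among long genes with a GC content under 57%, the class of Nid1, Lama4, Lamb1 and Lamc1, the median was -0.11 over 1475 genes. Between 57% and 60%, the class of Col4a1 and Lama5, it was -0.031 over 105 genes.

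A correction for exonic length and GC content (a local fit over the 5881 other genes) was therefore set beside each ratio. The fitted value was subtracted, and the median log2 ratio of genes with a mean of at least 50 (0.07) was added back. A ratio equal to its fitted value therefore becomes 0.07, not 0. Col4a2 then had a log2 ratio of -0.89 and was no longer called, or -0.62 with the longest transcript as the length. Lama5 had -0.57 and -0.0097 with these lengths, Hspg2 -0.24 and 0.33, and Lama4 0.022 and -0.034. Col4a1 (-0.64 and -0.56), Lamc1 (-0.54 and -0.39), Lamb1 (-0.26 and -0.32) and Col18a1 (-1.24 and -1.22) kept ratios below 0. Nid1 had 1.33 and 1.40. The median of the 9 genes was -0.54 and -0.32 after correction, where all genes had a median of 0.025 and 0.026. Hspg2 lies at the edge of the lengths fitted, where few genes are like it.

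**Figure D5:**
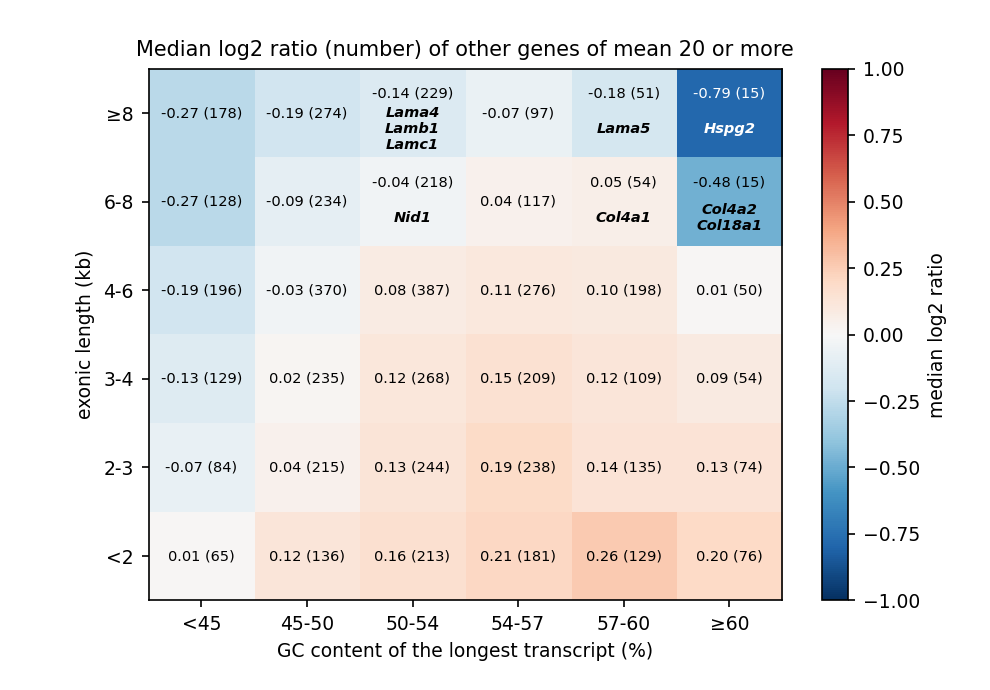
Cells give the median log2 ratio, with the number of genes in parentheses, of other genes with a mean of at least 20 by exonic length in kilobases and GC content of the longest transcript; members are named in their class. The top right cells, long and GC-rich, hold -0.48 and -0.79 over 15 genes each and contain Col4a2, Col18a1 and Hspg2.

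Other genes of the basement membrane included none called in either direction. Of a list of 30 further components 20 were listed and 5 had a mean of at least 50, none of which met the size rule in either direction (0.551% and 0.937% of all genes did). With these shares, no call among 5 genes says little about them. The 9 genes of this list with a mean of at least 20 had a median log2 ratio of 0.19, with 7 above 0. The 2 below 0 were Ntn4 (-1.26) and Col4a5 (-0.86), described under other observations. Over all 5892 genes of that minimum the median was 0.038, with 3239 above 0. Egfl7, a secreted endothelial matrix protein, had 1155 and 1484 (log2 ratio 0.36). Tinagl1, a matricellular protein related to cathepsins, had 779.0 and 999.96 (0.36). Lamb2, the beta chain that can stand in for Lamb1 in laminin trimers, had 129.7 and 149.3 (0.20).

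Receptors for the basement membrane went both ways. Of 19 genes on the list 16 were listed. Of the 10 with a mean of at least 50, 1 was lower and none was higher, where 0.937% and 0.551% of all 3629 such genes were. Itga6, the alpha chain of laminin-binding integrins, fell from 87.9 to 41.3, 2.13-fold, but had a log2 ratio of -0.84 after correction for length and GC. Its partner Itgb1, the common beta chain of matrix receptors, had 196.6 and 127.1 (log2 ratio -0.63). Mcam, an adhesion receptor of endothelium that binds Lama4-containing laminin, had 290.3 and 182.8 (-0.67), and the collagen receptor kinase Ddr1 had 36.8 and 66.5 (0.85). The 13 receptors with a mean of at least 20 had a median of 0.11, against 0.038 over all 5892 such genes.

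The machinery that folds, modifies and exports collagen showed no gene past the size rule. Of all 3629 genes tested 0.551% were higher and 0.937% lower, so no call among 18 genes says little about them. Of 31 genes 27 were listed and 18 had a mean of at least 50, and 15 of the 22 with a mean of at least 20 were above 0 in log2 ratio (median 0.067), where 3239 of all 5892 such genes were (median 0.038). Serpinh1, the collagen chaperone HSP47, had 1675 and 2334 (log2 ratio 0.48). Fkbp10, a prolyl isomerase of the endoplasmic reticulum that acts on collagen, had 301.3 and 443.0 (0.56), while the general chaperone Hspa5 had 324.0 and 231.8 (-0.48).

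Enzymes that act on the finished sheet, or on the heparan sulfate chains of perlecan, also held no gene past 2-fold among those with a mean of at least 50. Of all 3629 such genes 0.551% were higher and 0.937% lower, so no call among so few genes says little about them. Xylt1, Mmp3 and Adam10, with means of 4.13, 1.18 and 14.2, were named after their values were seen. Their deposited values were more than 2-fold lower, but with the pseudocount of 0.5 the log2 ratios were -1.06, -0.72 and -0.98. Mmp3 rested on 104 and 39 reads. Of 23 heparan sulfate genes 21 were listed, 10 of them with a mean of at least 50. The 14 with a mean of at least 20 had a median log2 ratio of -0.0060, against 0.038 over all 5892 such genes. B3gat3, which completes the linker of the chains, had 87.9 and 153.9 (log2 ratio 0.80). Sulf2, an extracellular sulfatase, had 170.0 and 254.4 (0.58), and Xylt2, which starts the chains, had 61.5 and 42.2 (-0.54). Of 24 matrix-cutting enzymes and inhibitors 21 were listed, 13 with a mean of at least 50. The 16 with a mean of at least 20 had a median of 0.28, against the same 0.038 over all genes. Adamts4, a proteoglycan-cutting protease, had 74.96 and 40.03 (-0.90). The plasminogen activator Plat had 107.1 and 152.4 (0.51). Of 9 fibrillar collagen genes, which mark fibroblast matrix rather than basement membrane, only Col5a1 was listed, with 114.1 and 75.8 (-0.59).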

How the data were processed

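The submitters' processing notes name Trimmomatic 0.39 and HISAT2 2.1.0, along with featureCounts 2.0.0, DESeq 1.39.0 and the build mm10. Which step each tool did, how genes were annotated and filtered, and how values were scaled is not given in the sources used here. Scaled signal per gene was deposited by the authors and used unchanged. Every value was a whole multiple of 1 step per library within 0.01 reads (100% of values), which gave the reads behind it. No count test was made, since each group had 1 library. The design had assumed raw counts or scaled values, and the rule for scaled values applied.

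Ratios were log2((knockdown + 0.5)/(control + 0.5)). This understates changes of low genes. Calls needed a mean of at least 50 and 2-fold. Counting intervals (95%) were exact: conditional binomial (Clopper-Pearson) for a ratio, conditional odds ratio for a difference. Reads carry no molecular identifiers.

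Symbols were found for 11399 of 11405 identifiers. Exonic length (all exons merged), overlaps and GC content (longest transcript) came from GENCODE M21, on the same build. The kit is not stated to mark strand, so overlapping antisense reads are not separable. The correction subtracted a local linear fit over the 200 nearest genes in length and GC. The median log2 ratio of genes with a mean of at least 50 (0.07) was then added back. The fit was tried on simulated data with a smooth trend over all fitted genes, which does not check the sparse long, GC-rich class. Promoter windows came from RefSeq, GRCm38.p6.

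The members and lists were chosen with earlier results of these data known. Named genes were the target, all members and, per list, genes past the size rule and up to 3 others with the largest ratios among genes of mean 50 or more; 1 gene this rule names is not reported here. Software was Python 3.11.15, numpy 2.4.6, pandas 2.3.3, scipy 1.17.1 and matplotlib 3.10.9.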

Additional observations from a re-analysis of the deposited data

How the results depend on the processing

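Nid1 was the 1 higher member under all alternatives. The number of lower members, 1 as reported, was 3 with a minimum mean of 20, 4 with no minimum, 3 at 1.5-fold and 0 after the length and GC correction with either length. Of all 3629 genes tested, 20 were lower after correction by exonic length and 17 by the longest transcript. No lower call among 6 members therefore says little. The correction with the longest transcript was chosen after seeing the data. The median ratio of the members was -0.87 when scaled by total reads, -0.73 by a trimmed mean of M values, -0.72 by median-of-ratios scaling, -0.73 over members of mean 20 or more, and -0.54 and -0.32 with the 2 corrections. Lama4 turned to 0.022 with the correction by exonic length, only through the constant added back, and Hspg2 to 0.33 with that by the longest transcript. The Col4a1 minus Col4a2 difference was 0.25 and 0.052 with these corrections. Lama4 minus Lama5 was 0.67 with a pseudocount of 5, 0.59 with the exonic length correction and -0.024 with the longest transcript, where Lamb1 minus Lamc1 was 0.073. Under the scalings and pseudocounts tried every member kept the sign of its ratio. At 1.5-fold, where 3.39% of all genes tested were higher and 3.89% lower, 10 receptors had 2 higher and 3 lower, 10 heparan sulfate genes 1 higher, 13 matrix-cutting enzymes and inhibitors 1 higher and 1 lower, and the 1 fibrillar collagen was lower. The cause of these shifts was not tested, apart from the filters, which admit more genes by construction. No paired analysis was possible because each group had 1 library. Depth limits mainly Col18a1, with 114 reads in the knockdown library.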

Other observations

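Some basement membrane genes under the minimum of the size rule were named after their values were seen. Ntn4, netrin 4, a laminin-related protein that binds laminin gamma chains, had 44.9 with the LacZ hairpin and 18.4 with the Pspc1 hairpin, 2.44-fold lower (log2 ratio -1.26). Its exons span 3741 bases at a GC content of 51.1%, outside the long GC-rich class, and its log2 ratio was -1.30 after the correction for length and GC. Col4a5, a type IV collagen chain that does not join Col4a1 trimers, had 36.8 and 20.01 (log2 ratio -0.86). Itgb4, the integrin chain that pairs with Itga6, had 53.6 and 8.75 (-2.55), lies in that class with 7015 exonic bases, and had -2.23 after the correction.

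Lamb2 transcripts outnumbered those of Lamb1 in both libraries. Per kilobase of exon Lamb2 had 21.3 and 24.5 and Lamb1 had 11.7 and 8.82. With the length of the longest transcript the values were 23.0 and 26.5 for Lamb2 and 19.99 and 15.1 for Lamb1, so the gap in the control library depended on the length used. Both libraries placed Lamb2 first under either length.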
